A study of Homo sapiens with 2 samples.

Results

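The 9 genes described here, FOS, FOSB, JUN, JUNB, ATF3, EGR1, IER2, DUSP1 and NR4A1, are immediate-early genes whose transcripts are known to rise when tissue is taken apart. They were chosen by gene name, from the 62704 genes counted, and all 9 were found under the same name in both libraries. They were followed in brain organoids grown from the H9 human embryonic stem cell line, in 1 library of whole cells and 1 library of nuclei, both made by split-pool barcoding. The cell library pooled control organoids (CO) of days 45, 55 and 70, organoids dissociated at day 45 and left to reaggregate (DISS) and sampled at days 48, 55 and 70, and organoids freed of Matrigel at day 13 and held in agarose (CONS), sampled at day 55. The nuclei came, by the study's methods, from day 45 CO, taken as whole organoids and as single-cell suspensions, although the label of that library also lists dissociated and embedded organoids. Every sample in both libraries shared the H9 background, so the line stands for 1 donor genome. Cells were freed in Accumax with DNase I at 37 °C for 20 minutes, so warm enzymatic dissociation was common to all conditions of the cell library. All nuclei were released by lysis on ice and sorted on DAPI, those of whole organoids from snap-frozen tissue, but the nuclei of single-cell suspensions came from organoids that had also been dissociated in Accumax at 37 °C. Part of the nuclei therefore shared the warm dissociation of the cells, and which nuclei these are is not given in the labels or the deposited tables.

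Immediate-early genes are transcribed within minutes of a stimulus, from promoters already held ready and without new protein synthesis, and their transcripts are short-lived. FOS, FOSB, JUN, JUNB and ATF3 encode leucine-zipper proteins that pair to form AP-1 and related dimers. EGR1 is a zinc-finger transcription factor, NR4A1 an orphan nuclear receptor, IER2 a small nuclear protein, and DUSP1 a phosphatase that switches MAP kinases off again. In brain tissue the same genes mark neuronal activity and growth-factor signalling, and in dissociated tissue they are a familiar mark of handling.

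A known route to these genes is serum response factor, encoded by SRF, which binds the CArG box, and another is CREB, which binds TGACGTCA. The upstream 250 bases of 3 genes are shown because they hold these letters or a TATA box. Sequences are from RefSeq (GRCh38.p14), read 5′ to 3′ on the strand of the gene up to its start, and capitals mark CArG boxes in EGR1, TATAAA in FOS, and TGACGTCA and TATAAA in DUSP1.
EGR1: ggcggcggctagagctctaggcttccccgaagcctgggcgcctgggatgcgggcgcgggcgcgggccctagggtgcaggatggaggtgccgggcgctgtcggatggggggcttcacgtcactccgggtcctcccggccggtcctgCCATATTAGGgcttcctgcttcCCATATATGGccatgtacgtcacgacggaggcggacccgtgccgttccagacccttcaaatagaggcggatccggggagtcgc
FOS: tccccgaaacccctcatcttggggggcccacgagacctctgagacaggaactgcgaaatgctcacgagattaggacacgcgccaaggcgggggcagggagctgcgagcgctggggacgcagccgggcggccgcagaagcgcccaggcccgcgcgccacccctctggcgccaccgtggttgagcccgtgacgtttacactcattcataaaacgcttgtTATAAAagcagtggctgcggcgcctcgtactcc
DUSP1: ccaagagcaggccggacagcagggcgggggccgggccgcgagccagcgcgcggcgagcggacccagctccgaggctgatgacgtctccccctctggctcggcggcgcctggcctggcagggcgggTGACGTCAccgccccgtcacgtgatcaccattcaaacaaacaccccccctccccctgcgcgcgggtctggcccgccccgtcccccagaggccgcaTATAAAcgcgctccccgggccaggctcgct
The EGR1 window is chr5:138465229-138465478 on the plus strand, that of FOS is chr14:75278578-75278827 on the plus strand, and that of DUSP1 is chr5:172771196-172771445 on the minus strand.

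Both strands of every window were searched. EGR1 was the only gene of the 9 with a CArG box in this window, and it had 2, beginning 105 and 83 bases before the gene start, against 1.16% of 35116 promoter entries with any. TGACGTCA lay in the DUSP1 window alone, 125 bases before the start, and in 1.65% of all entries. TATAAA was found in the windows of FOS, FOSB, JUNB, ATF3 and DUSP1, 5 of the 9 genes, and in 10.7% of all entries; in ATF3 it lay in one of its 2 entries. The AP-1 motif TGANTCA was in none of the 9 windows and in 6.57% of all entries. Only full matches were counted, so near matches, such as tgacgttt in the FOS window, were left out and not marked. A match is only a run of letters. A window without one says nothing about variant sites within it or about sites farther upstream.

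The 9 genes are compact. DUSP1 spans 3100 bases and JUNB 1830 bases, JUN and JUNB each have 1 exon in the GRCh38 annotation, and the longest are NR4A1 with 36676 bases and ATF3 with 55444 bases. FOSB overlaps ERCC1 on the other strand, JUNB overlaps HOOK2, NR4A1 overlaps NR4A1AS, and IER2 and DUSP1 overlap unnamed antisense genes. The strand setting of the counting was not given in the sources used here, so reads of such partners cannot be told apart from those of FOSB, JUNB, NR4A1, IER2 and DUSP1. FOS, JUN, ATF3 and EGR1 have no annotated overlap.

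Barcodes were kept when they held more than 500 genes and more than 1000 transcripts with at most 20% mitochondrial transcripts. This left 20178 cells of 1303455 barcodes, with 157306492 transcripts and a median of 2615 per cell, and 14228 nuclei of 197446 barcodes, with 72162726 transcripts and a median of 3890. The deepest 1% of cells held 20.2% of the transcripts. The 2 libraries shared 533 barcode combinations among kept barcodes. The first barcoding round used 48 wells for the cells and 12 for the nuclei, but which organoids went into which well is not given in the labels or the deposited tables, so wells are treated as samples of unknown condition. With 1 library of each kind there was no replicate of the comparison and no test was made. Intervals given in brackets are exact 95% Poisson or Clopper-Pearson intervals, which cover counting error only, and standard deviations are over the 8 sub-libraries of the cells, which are technical.

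EGR1 was the most abundant of the 9 transcripts in whole cells both as counts scaled to 1000000 transcripts (CPM) and per kilobase of exon, followed per kilobase by FOS, JUN and IER2, with 53.6, 35.7, 27.5 and 20.6 CPM per kilobase. NR4A1, DUSP1, JUNB, ATF3 and FOSB lay lower, between 4.72 and 8.73 CPM per kilobase. EGR1 was the highest of the 9 per kilobase in 32 of the 48 wells of the first barcoding round, FOS in 9, JUN in 6 and IER2 in 1. Over all nuclei EGR1 was at 13.4 CPM per kilobase, JUN at 9.21, FOS at 5.51, NR4A1 at 5.15 and IER2 at 4.51, but this order rested on 2 of the 12 wells. EGR1 was the highest per kilobase in wells 11 and 12 alone, JUN in 5 of the other 10 wells, NR4A1 in 3 and ATF3 in 2, and without wells 11 and 12 JUN was at 5.2, NR4A1 at 4.26 and EGR1 at 0.771 CPM per kilobase. Counts were divided by exon bases alone, 2485 of 36676 bases for NR4A1 and 1940 of 55444 for ATF3. The part of intronic counts in nuclei was not tested. Single wells could rest on few counts, as in well 1, with 6 of ATF3, 8 of JUN and 6 of IER2.

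Whole cells held more of all 9 transcripts than nuclei, and 7 of the 9 were at least 2-fold higher. Over all genes with at least 20 counts, 38.2% passed the same limit, and of the 18206 protein-coding genes among them 25.5% did. The median log2 ratio of cells over nuclei was 2.00 for the 9 genes, 0.66 for all 34438 genes tested and 0.38 for the protein-coding genes. Short genes were shifted more: among protein-coding genes spanning at most 5000 bases, 56.5% passed the limit, with a median of 1.16, whereas those over 100000 bases had a median of -0.04.

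Among the AP-1 subunits, FOS, the classical partner of JUN, was at 75.1 CPM (SD 3.69) in cells and 11.6 CPM [10.8 to 12.4] in nuclei, a ratio of 6.47 [6.04 to 6.95]. FOSB, a close relative of FOS, was at 17.8 CPM (SD 2.24) and 4.03 CPM [3.58 to 4.52], a ratio of 4.42. JUN was at 89.5 CPM (SD 2.67) and 30 CPM [28.7 to 31.3], a ratio of 2.99. JUNB, which has weaker activity than JUN on many targets, was at 11.7 CPM (SD 1.86) and 2.02 CPM [1.71 to 2.38], a ratio of 5.80. ATF3, a stress-induced member that acts mostly as a repressor, was at 12.3 CPM (SD 1.23) and 6.78 CPM [6.19 to 7.40], a ratio of 1.82 that stayed under the 2-fold limit.

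EGR1 was at 168 CPM (SD 10.5) in cells and 41.9 CPM [40.4 to 43.4] in nuclei, a ratio of 4.00 [3.85 to 4.15]. IER2 was at 43.4 CPM (SD 3.54) and 9.52 CPM [8.82 to 10.3], a ratio of 4.56. DUSP1, which provides negative feedback, was at 12.9 CPM (SD 1.67) and 4.38 CPM [3.91 to 4.89], a ratio of 2.94. NR4A1 was at 21.7 CPM (SD 2.10) and 12.8 CPM [12 to 13.7], the smallest ratio of the 9, 1.69 [1.57 to 1.82]. Each gene's sub-libraries of cells lay above its 2 sub-libraries of nuclei without overlap, a comparison of repeat libraries of the same barcoded pool.

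**Figure D1:**
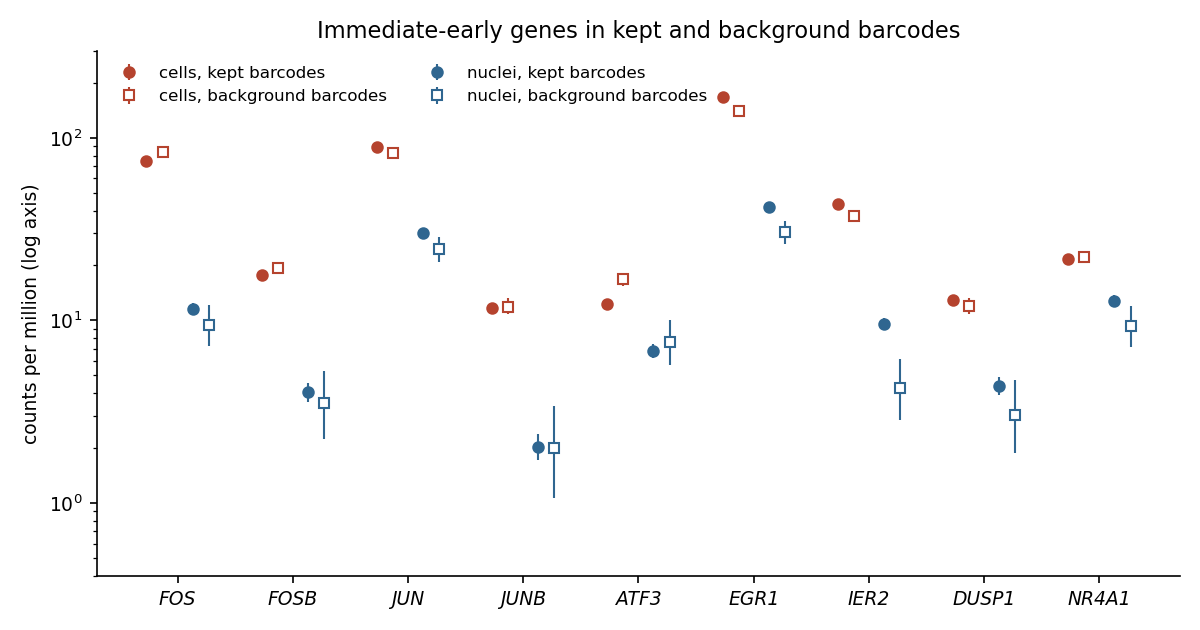
Level of each of the 9 genes in CPM (log axis) in kept barcodes (filled circles) and in background barcodes of 10 to 100 transcripts (open squares), for cells in red and nuclei in blue. Bars are exact 95% Poisson intervals. In cells, kept and background levels lie close together for every gene, from 0.731-fold for ATF3 to 1.20-fold for EGR1, and both lie above the nuclei.

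The excess in cells was much larger once 2 wells of nuclei were set aside, since wells 11 and 12 held most of the nuclear counts of some members. This setting was chosen after seeing the data. Without both wells, all 9 genes were at least 2-fold higher in cells, against 41.3% of genes, and the ratio was 69.3 for EGR1 instead of 4.00, 47.4 for FOSB, 28.7 for FOS, 12.6 for JUNB, 9.25 for IER2 and 6.66 for DUSP1. JUN, at 5.28, ATF3, at 2.79, and NR4A1, at 2.05, moved least. Without well 11 alone 8 of 9 passed, against 39.8% of genes, with an EGR1 ratio of 7.12, and without well 12 alone 8 of 9 passed, against 39.5% of genes, with an EGR1 ratio of 6.49. The ratios of the whole libraries are therefore averages over nuclei wells that differed widely.

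In the 12 wells of nuclei, wells 11 and 12 stood apart from the other 10 for 8 of the 9 genes. Both lay above each of the other 10 wells for FOS, FOSB, JUN, JUNB, ATF3, EGR1, IER2 and DUSP1, as did 10.3% of the 17309 genes with at least 100 counts, and both were at least 2-fold above each of the others for FOS, FOSB and EGR1, as were 0.739% of genes. The 2 wells were picked after the levels of the members were seen, so these counts only describe the wells. The sum of the 9 genes was 376 CPM [363 to 389] in well 11 and 406 CPM [392 to 420] in well 12, and between 17.4 CPM in well 10 and 124 CPM in well 6 elsewhere.

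EGR1, the gene with the CArG boxes shown above, was at 178 CPM [169 to 187] in well 11 and 176 CPM [166 to 185] in well 12. Across wells 1 to 10, EGR1 was at 0, 6.51, 3.71, 5.54, 2.06, 8.10, 2.85, 0.946, 1.16 and 1.48 CPM, the 0 of well 1 allowing up to 3.12 CPM. Wells 11 and 12 thus held 50.5% and 45.0% of all EGR1 counts in nuclei, with 11.9% and 10.8% of the transcripts.

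FOSB was at 16.6 CPM in well 11 and 16.5 CPM in well 12, and at most 1.23 CPM in the other 10, with no count in wells 1, 4 and 9, which allow up to 3.12, 1.51 and 0.347 CPM. FOS was at 46.2 CPM and 38.0 CPM, against 1.04, 1.63, 1.69, 5.04, 4.63, 11, 5.45, 0.946, 0.810 and 0.386 CPM in wells 1 to 10. These 3 genes shared the sharpest step between wells 11 and 12 and the rest.

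JUN was more graded over the wells. It was at 64.1 CPM [58.8 to 69.6] in well 11 and 86.2 CPM [79.8 to 93.0] in well 12, but well 6 reached 58.2 CPM [51.0 to 66.1], overlapping well 11 in its interval, and wells 5 and 7 were at 32.9 and 30.2 CPM against 4.69 to 18.7 CPM in the other 7.

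IER2 and DUSP1 differed between wells 11 and 12 themselves. IER2 was at 15.1 CPM [12.6 to 17.9] in well 11 and 38.2 CPM [33.9 to 42.8] in well 12, whereas DUSP1 was at 16.2 CPM [13.6 to 19.1] and 8.89 CPM [6.92 to 11.3], the opposite order. The other 10 wells held 2.12 to 9.52 CPM of IER2 and 1.01 to 5.4 CPM of DUSP1. JUNB was at 6.88 and 4.51 CPM against 0 to 3.19 CPM.

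ATF3 and NR4A1 varied least. ATF3 was at 13.7 CPM [11.3 to 16.4] in well 11 and 16.1 CPM [13.4 to 19.2] in well 12, near the 11.8 CPM [8.69 to 15.6] of well 6. NR4A1 overlapped altogether, with 19.0 CPM in well 11, 22.0 CPM in well 12 and its highest level, 23.4 CPM [18.9 to 28.7], in well 5.

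**Figure D2:**
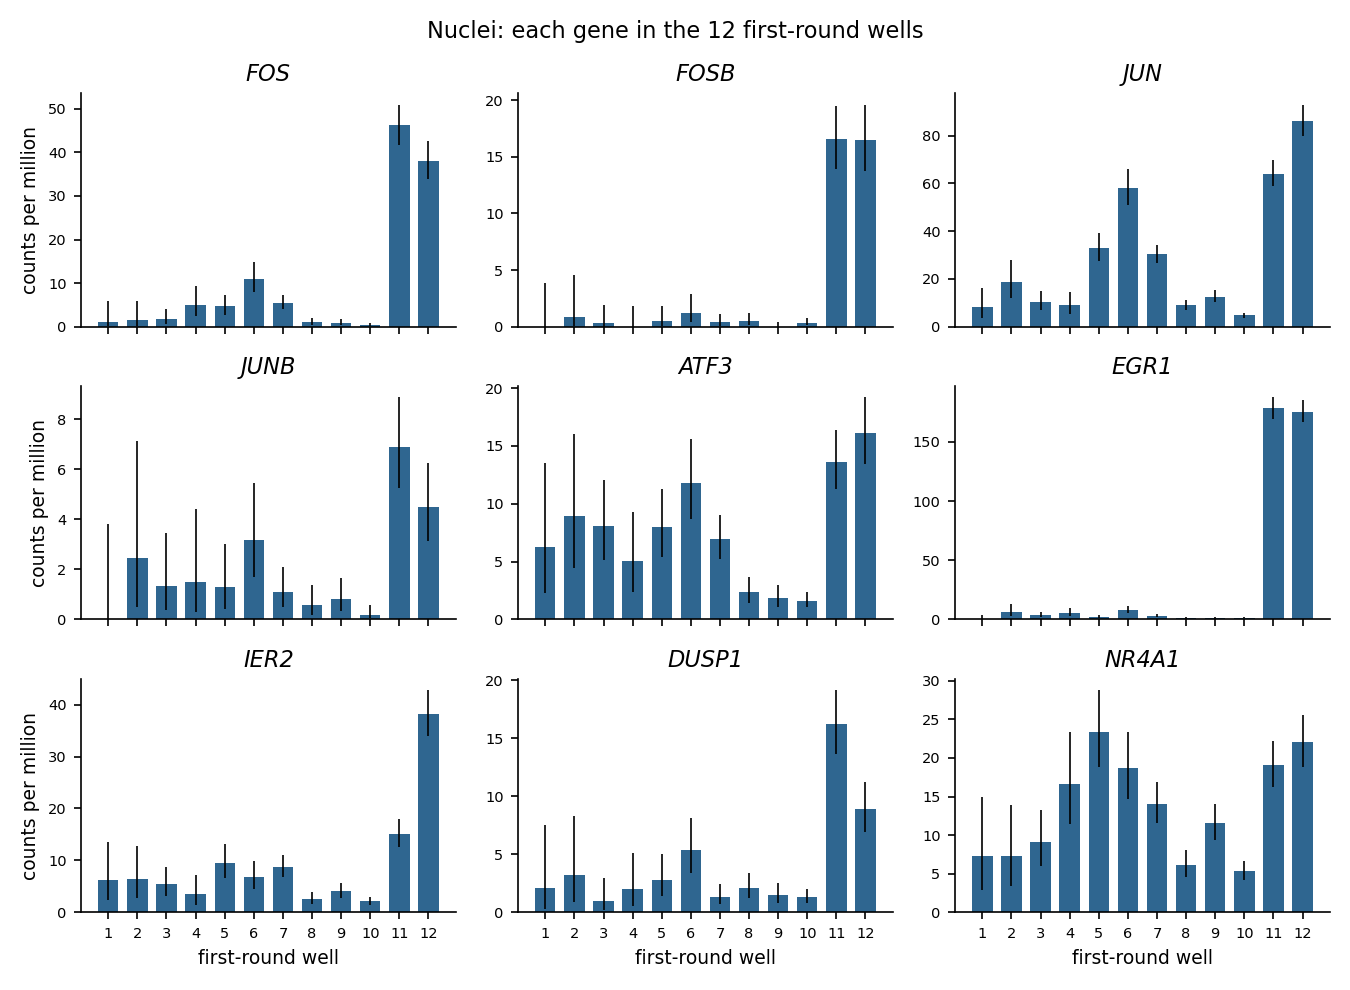
CPM of each of the 9 genes in the 12 first-round wells of the nuclei, with each axis starting at 0 and bars for exact 95% Poisson intervals. EGR1, FOS and FOSB are high in wells 11 and 12 alone, JUN is also raised in wells 5, 6 and 7, and NR4A1 is highest in well 5.

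Heat shock genes, which answer protein damage rather than growth-factor signals, were high in wells 11 and 12 and in 3 further wells. The 14 genes of that list summed to 1080 and 1240 CPM in wells 11 and 12, but also to 1360, 1450 and 1110 CPM in wells 5, 6 and 7, against 246 to 387 CPM in the other 7. HSP90AA1, an inducible HSP90 chaperone, was at 572, 665 and 534 CPM in wells 5, 6 and 7 and 372 and 436 CPM in wells 11 and 12. DNAJA1, an HSP70 cochaperone, and HSPA8, the constitutive HSP70, were instead highest in wells 11 and 12, DNAJA1 at 152 and 172 CPM against 23.6 to 57.4 CPM and HSPA8 at 76.3 and 73.7 CPM against 10.4 to 53.0 CPM. EGR1 in wells 5, 6 and 7 was at 2.06, 8.10 and 2.85 CPM, so these 3 wells carried heat shock transcripts without the EGR1 level of wells 11 and 12. JUN, as given above, was raised in all 5 wells. As a description over the 12 wells, which share 1 library and differ in depth, the correlation of log2(CPM + 1) with the heat shock sum was 0.90 for JUN, 0.79 for FOS and 0.56 for EGR1.

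Other genes of the pathway moved with wells 11 and 12 in part. Of 17 other immediate-early non-factor genes with at least 100 counts, 9 lay higher in both wells than in each other well, against 10.3% of all genes, and HBEGF, a growth factor of the EGF family, was 2-fold above them all with 8.63 and 7.22 CPM against 0 to 3.25 CPM. MCL1, an antiapoptotic protein, was at 81.6 and 75.4 CPM against 28.3 to 44.8 CPM. Of 8 other immediate-early factors 2 did so, and SRF was at 38.9 and 35.8 CPM against 7.56 to 15.2 CPM. Of 13 upstream kinases and cofactors 1 did, MRTFB, a share near the 10.3% of all genes, and of 14 heat shock genes 5 did. Of 8 other AP-1 family genes 1 did, MAFF at 16.8 and 15.5 CPM against 1.04 to 8.59 CPM, also a share near that of all genes, and of 5 dual-specificity phosphatases 2 did, DUSP5 and DUSP10.

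The same 2 wells were high within each marker-defined type that could be compared. In RG-like nuclei (radial glia, the neural stem cells of the cortex) of wells with at least 50 such nuclei, the sum of the 9 genes was 487 CPM in well 11 and 539 CPM in well 12, with at most 97.5 CPM elsewhere. In excitatory neuron-like nuclei it was 212 and 285 CPM, with at most 58.6 CPM elsewhere. Wells 11 and 12 were also the deepest, with medians of 6078 and 6064 transcripts per nucleus, and had the highest median mitochondrial share, 0.331% and 0.266%, with 0.0347% to 0.171% in the others. Well 10 was nearly as deep, with a median of 5643, and had the lowest sum of the 9 genes, 17.4 CPM. Of summed transcripts, the mitochondrial share was 0.726% and 0.629% in wells 11 and 12 but highest in well 2, at 0.74%, whose sum was 56.1 CPM. Over the 12 wells the sum correlated at 0.36 with median depth and 0.68 with this share, on the log2 scale. The part of depth or of carried-over cytoplasm in the levels of the 9 genes was not tested.

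Across the 48 wells of cells the sum of the 9 genes ranged from 165 CPM [149 to 183] in well 14 to 972 CPM [889 to 1060] in well 44, with a median of 402 CPM. This is a 5.88-fold range [5.13 to 6.75]. Every cell well was at 165 CPM or more, above the 10 lower wells of nuclei, while wells 11 and 12 of the nuclei fell within the range of the cell wells.

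FOS, JUN and EGR1 had different highest wells. FOS was highest in well 48, at 313 CPM [296 to 330], then in wells 34, 32 and 33 with 266, 249 and 244 CPM. JUN was highest in well 19, at 319 CPM [297 to 343], then in wells 44, 16 and 17 with 233, 213 and 203 CPM. EGR1 was highest in wells 10, 6, 4 and 9, with 452, 436, 414 and 400 CPM, where FOS was not among its 4 highest.

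FOSB spread most, from 1.90 CPM in well 13 to 113 CPM [85.6 to 146] in well 44, a 59.5-fold range. NR4A1 and JUNB peaked in well 42, at 68.9 and 58.7 CPM, ATF3 in well 48 at 45.5 CPM, IER2 in well 18 at 112 CPM [97.0 to 129] and DUSP1 in well 19 at 32.6 CPM [25.7 to 40.8]. JUNB and DUSP1 had no count in well 20, whose 86920 transcripts allow up to 34.5 CPM at 0 counts, the limit set by 3 counts.

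The spread over wells beyond counting error, as a coefficient of variation, was 1.12 for FOSB, 0.817 for FOS, 0.753 for JUNB, 0.648 for EGR1 and 0.467 for NR4A1, with a median of 0.306 over genes. It exceeded 0.5 for every member but NR4A1, 8 of 9, and for 22.8% of genes. In nuclei it was 2.10 for EGR1, 2.01 for FOSB, 1.58 for FOS, 1.08 for DUSP1 and 1.07 for IER2, above 1 for these 5 of 9 and for 0.520% of genes, with a median of 0.203.

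**Figure D3:**
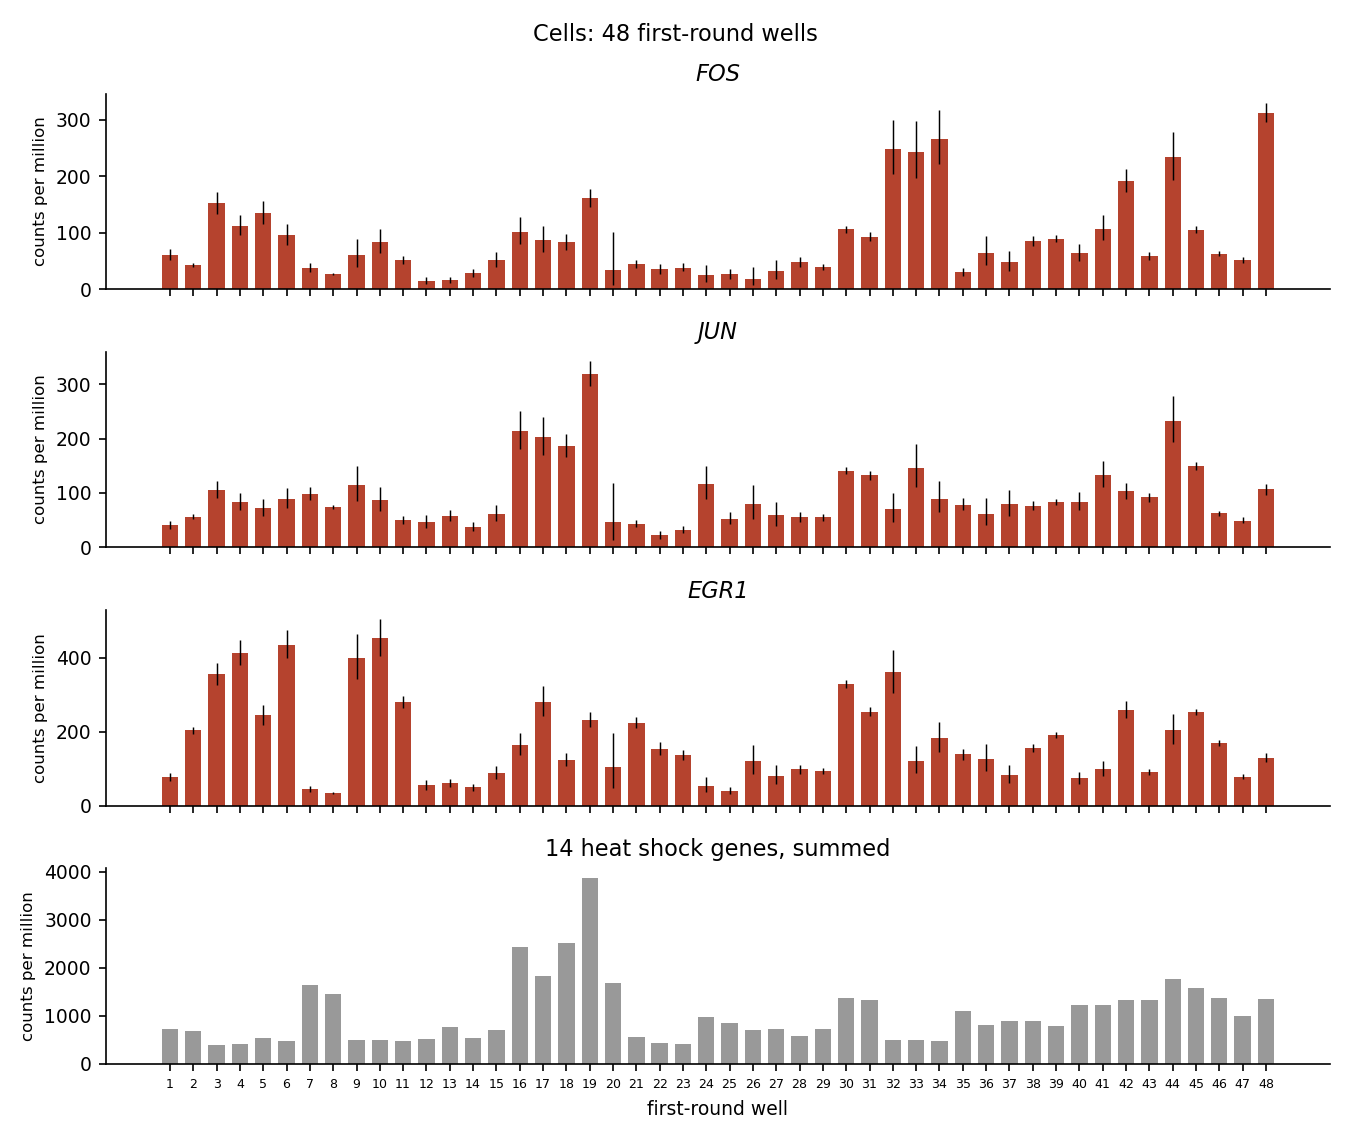
CPM of FOS, JUN and EGR1, with exact 95% Poisson intervals, and of 14 heat shock genes summed, in the 48 first-round wells of the cells; every axis starts at 0. FOS peaks in wells 32 to 34 and 48, JUN in wells 16 to 19 and 44, where the heat shock genes are also above their median of 802 CPM, and EGR1 in wells 4, 6, 9 and 10.

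JUN followed the heat shock genes over these wells more closely than FOS and EGR1 did, with exceptions. Well 19, the highest for JUN, also held the highest heat shock sum, 3880 CPM, and wells 16, 17 and 18, with JUN at 213, 203 and 186 CPM, held 2430, 1830 and 2510 CPM. Wells 32, 33 and 34, with FOS at 244 to 266 CPM, held 504, 498 and 478 CPM, under the median of 802 CPM, but wells 48 and 44, with FOS at 313 and 233 CPM, held 1350 and 1760 CPM. Well 33 had JUN at 146 CPM, above its median of 79.2 CPM, with few heat shock transcripts, and well 8 had JUN at 74.3 CPM with 1450 CPM of them. As a description over the 48 wells, which share 1 library and differ in depth and cell types, the correlation of log2(CPM + 1) with the heat shock sum was 0.63 for JUN, 0.14 for FOS and -0.17 for EGR1.

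The genes most like FOS over the 48 wells, on the same scale, were ZFP36L1, an RNA-binding protein that speeds decay of short-lived transcripts, with a correlation of 0.81, CCN1, a matricellular protein and YAP target, with 0.79, and MCL1 with 0.76, followed by PDLIM7 and MCAM with 0.75. The first 3 were in the lists of other immediate-early genes. Those most like the sum of the 9 were CCN1 with 0.79, ZFP36L1 with 0.77, VIM with 0.75, PDLIM7 with 0.74 and CNN3 with 0.73. Between members the correlation was 0.75 for FOS and FOSB, 0.61 for FOS and EGR1, 0.57 for FOS and JUN, 0.33 for JUN and EGR1 and -0.11 for ATF3 and EGR1.

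Barcodes too shallow to be kept carried the same transcripts. In background barcodes of 10 to 100 transcripts the 9 genes summed to 426 CPM [419 to 433] in the cell library, against 452 CPM [449 to 455] in kept cells, and to 94.2 CPM [87.0 to 102] in the nuclei library, against 123 CPM [121 to 126]. ATF3 and FOS were higher in the background of the cells than in kept cells, at 16.9 and 84.0 CPM, and EGR1, IER2 and JUN were lower, at 140, 37.2 and 82.3 CPM. In nuclei IER2 differed most, with 9.52 CPM in kept nuclei and 4.28 CPM in the background.

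The background followed the wells. It ranged from 177 to 879 CPM over the 48 cell wells, and the kept level was 0.803 to 1.57 times that of its own well, while the correlation of kept and background levels on the log2 scale was 0.95. In nuclei the background was at 249 and 246 CPM in wells 11 and 12 and at 14.9 to 115 CPM in the other 10, so kept nuclei of wells 11 and 12 exceeded their own background. They were not alone in this: over the 12 wells the kept level was 0.565 to 1.74 times that of its own well, highest in well 5. Shallow barcodes can hold free RNA or the remains of broken cells, which cannot be told apart here, and their part in the kept levels was not tested.

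**Figure D4:**
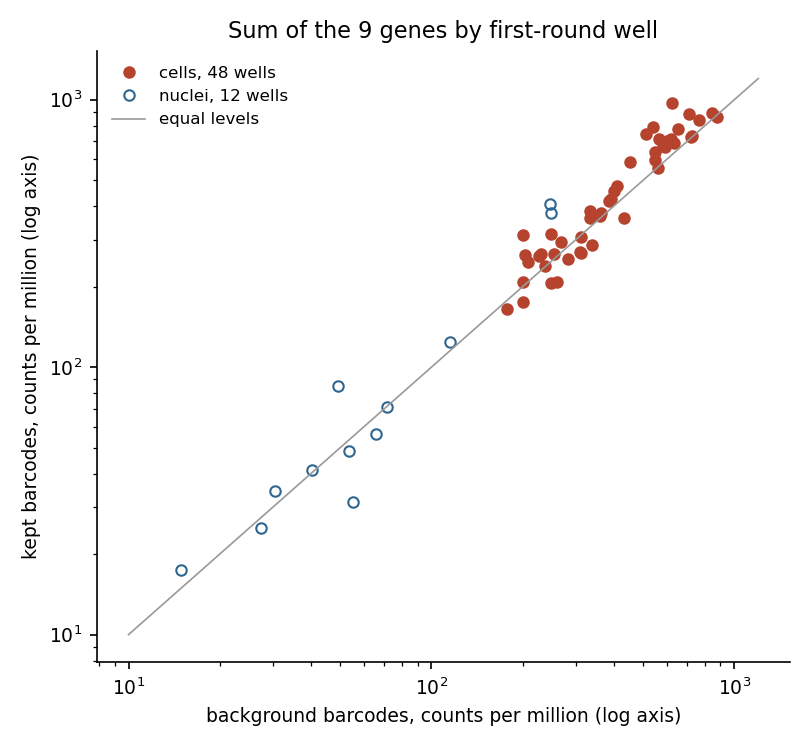
Sum of the 9 genes in CPM in kept barcodes (vertical, log axis) against background barcodes of the same first-round well (horizontal, log axis), for 48 wells of cells (filled) and 12 wells of nuclei (open); the line marks equal levels. Points follow the line, and wells 11 and 12 of the nuclei, at 376 and 406 CPM, lie above it and among the cell wells.

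Few barcodes held several members at once when each was cut to 1000 transcripts. After each kept barcode was thinned to 1000 transcripts, 31.1% of cells [30.4 to 31.7] and 8.85% of nuclei [8.39 to 9.33] held at least 1 of the 9 transcripts. Drawing 1000 transcripts from the background pooled over wells gave 34.7% and 8.99%, and the shares of kept barcodes were not above these pooled draws. The pooled draw does not weight wells by their kept barcodes, so it cannot show whether the shares exceed the background of their own wells. The part of background RNA in them was not tested. Without thinning the shares of kept barcodes were 59.6% and 23.7%. At least 4 members were held by 32 of the thinned cells and 14 of the thinned nuclei. EGR1 was found in 12.9% of thinned cells, JUN in 8.11%, FOS in 6.67% and IER2 in 3.89%. Depth moved the level little in cells, where the sum was 402 to 473 CPM over 5 depth classes, whereas in nuclei it was 94.7 to 156 CPM in the 4 classes up to 50000 transcripts and 33.8 CPM [25.2 to 44.3] in the 19 nuclei above.

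FOS and FOSB occurred together in 56 thinned cells, 2.05 times [1.55 to 2.66] the number given by their separate shares within wells. In nuclei FOS and JUN occurred together in 31, 3.34 times [2.27 to 4.74], FOS and ATF3 in 16, 6.93 times [3.96 to 11.3], and FOS and EGR1 in 32, 2.05 times [1.40 to 2.89]. Without the division into wells the value for FOS and EGR1 was 8.14. Within wells and within RG-like nuclei the excess was not seen for FOS and EGR1, at 0.953 times [0.436 to 1.81] from 9 nuclei, and was not resolved for FOS and JUN, at 1.34 times [0.437 to 3.14] from 5. Among RG-like cells FOS and FOSB were at 2.90 times [1.45 to 5.19] and FOS and EGR1 at 1.05 times [0.782 to 1.39].

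Types were defined by clustering without the 9 genes and the other listed genes, and were named from marker genes. In cells, dividing progenitor-like cells had the highest sum, 712 CPM [696 to 729], and excitatory neuron-like cells the lowest, 215 CPM [210 to 221], a 3.31-fold difference. Choroid plexus-like cells, the epithelium that makes cerebrospinal fluid, were at 519 CPM [508 to 530], RG-like cells at 508 CPM [499 to 517] and intermediate progenitor-like cells, the neuron-producing daughters of radial glia, at 329 CPM [316 to 342]. The choroid plexus-like and RG-like levels did not differ beyond the SD over sub-libraries, 51.7 and 26.7 CPM. In thinned barcodes at least 1 member was found in 41.8% of dividing progenitor-like, 38.5% of choroid plexus-like, 36.2% of RG-like, 26.7% of intermediate progenitor-like and 17.1% of excitatory neuron-like cells, the last 2 shares under the 34.7% of draws from the pooled background. No share was measured against the background of its own wells. Well 45, which gave 19.9% of the dividing progenitor-like cells, had a background of 724 CPM against 426 CPM pooled. Unnamed clusters held 11081 of the 20178 cells, at 477 CPM, and 9617 of the 14228 nuclei, at 104 CPM. Among those of cells, clusters of 724 and 134 cells met 5 and 7 of the 7 dividing progenitor markers, at 812 and 438 CPM.

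The pooled order differed between genes. EGR1 was at 302 CPM in dividing progenitor-like, 221 in RG-like, 160 in choroid plexus-like, 121 in intermediate progenitor-like and 53.5 in excitatory neuron-like cells. FOS was highest in choroid plexus-like cells, at 134 CPM, next to 124 CPM in dividing progenitor-like cells, and was at 20.8 CPM in excitatory neuron-like cells. The FOS order of the first pair rested on well 48, chosen after seeing the data: without it choroid plexus-like cells were at 94.1 CPM [89.2 to 99.3] and dividing progenitor-like cells at 123 CPM [116 to 130], and in the 8 wells with at least 20 barcodes of both, choroid plexus-like cells were higher in 4. JUN was flatter, from 136 CPM in dividing progenitor-like to 67.7 CPM in intermediate progenitor-like cells, and NR4A1 was highest in choroid plexus-like cells, at 32.6 CPM, with 16.3 to 20.7 CPM in the other 4. Within wells NR4A1 was higher in choroid plexus-like than in dividing progenitor-like cells in 6 of 8 and than in RG-like cells in 7 of 11. EGR1 was higher in dividing progenitor-like than in RG-like cells in 10 of 15 wells.

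Between RG-like and excitatory neuron-like cells, FOS, FOSB and EGR1 were at least 2-fold higher in the former, 3 of 9 members, as were 7.14% of the 26154 genes compared. The ratios were 4.15 [3.77 to 4.57] for FOS, 4.65 [3.73 to 5.84] for FOSB and 4.14 [3.90 to 4.39] for EGR1, whereas DUSP1 was at 1.13 [0.948 to 1.34] and JUN at 1.28 [1.20 to 1.36]. In nuclei FOS, FOSB, ATF3 and EGR1 passed the limit, 4 of 9, as did 20.4% of 17116 genes, with ratios of 2.87 [1.97 to 4.32], 6.40 [2.85 to 17.8], 4.15 [2.02 to 9.89] and 4.42 [3.55 to 5.57]. These nuclear ratios pool wells of unequal level, since wells 11 and 12 gave 354 and 314 of the 2420 RG-like but 77 and 67 of the 866 excitatory neuron-like nuclei. Within the 9 wells with at least 20 nuclei of both types, EGR1 was higher in RG-like nuclei in 7 and lower in 0, ATF3 higher in 6 and lower in 1, FOS higher in 5 and lower in 3, and FOSB higher in 3 and lower in 0. The RG-like nuclei were also 2 unlike clusters, 1419 nuclei led by EGR1, OR51B5 and PTPRQ and 1001 nuclei led by LINC01965, LRRTM3 and SLC1A3, of which 50.7% came from well 10. The 4 calls came from the former: FOS was at 35.9 CPM there and 4.48 CPM in the latter, EGR1 at 155 and 17.0 CPM, FOSB at 16 and 1.12 CPM and ATF3 at 13.0 and 2.24 CPM, against 8.06, 22.4, 1.56 and 2.08 CPM in excitatory neuron-like nuclei. Of the 2 RG-like clusters of cells, the one led by ADAMTS19, NRG1 and SV2C, with FOS at 54.3, FOSB at 6.07 and EGR1 at 219 CPM, passed the limit over excitatory neuron-like cells for FOS and EGR1 but not for FOSB.

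The difference between RG-like and excitatory neuron-like cells was also seen inside wells. In the 23 wells of cells with at least 20 barcodes of each type, RG-like cells held more of the 9 transcripts in sum than excitatory neuron-like cells in 23, by 1.13 to 5.04 times with a median of 2.82. By gene, EGR1 was higher in RG-like cells in 23 of these wells, FOS in 22, FOSB in 20 and IER2 in 19. JUN and ATF3 were higher in 18, NR4A1 in 16 and JUNB in 15, whereas DUSP1 was higher in 10 and lower in 11. The median ratio for JUN was 1.77 within wells, against 1.28 pooled. Dividing progenitor-like cells were above excitatory neuron-like cells in 14 of 15 wells, but above RG-like cells in only 9 of 15, with a median ratio of 1.03, so their lead over RG-like cells in the pooled values was not held within wells. In nuclei, RG-like were above excitatory neuron-like in 7 of 9 wells, with a median ratio of 1.81. The order of the pooled nuclear sums was another than in cells, with RG-like nuclei at 221 CPM [212 to 230], dividing progenitor-like nuclei at 115 CPM [109 to 122] and excitatory neuron-like nuclei at 89.2 CPM [80.0 to 99.2]. The RG-like value averages 335 CPM [321 to 349] in the cluster led by EGR1 and 54.5 CPM [47.8 to 61.7] in the other. The latter lay below the excitatory neuron-like nuclei, whose cluster met 5 of 9 excitatory neuron markers. Unnamed clusters meeting 6 and 5 of these markers lay below that RG-like cluster, the first at 44.5 CPM [39.8 to 49.5]. This order therefore depends on which cluster took the name. The dividing progenitor-like value averages clusters at 186 and 68.6 CPM. Unnamed clusters of 1572 and 138 nuclei met 5 and 7 of the 7 dividing progenitor markers, at 112 and 70.0 CPM. Within wells dividing progenitor-like were above excitatory neuron-like nuclei in 7 of 11, with a median ratio of 1.08, and above RG-like nuclei in 4 of 10, with a median ratio of 0.891, so the lead of dividing progenitor-like cells was not seen in nuclei.

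**Figure D5:**
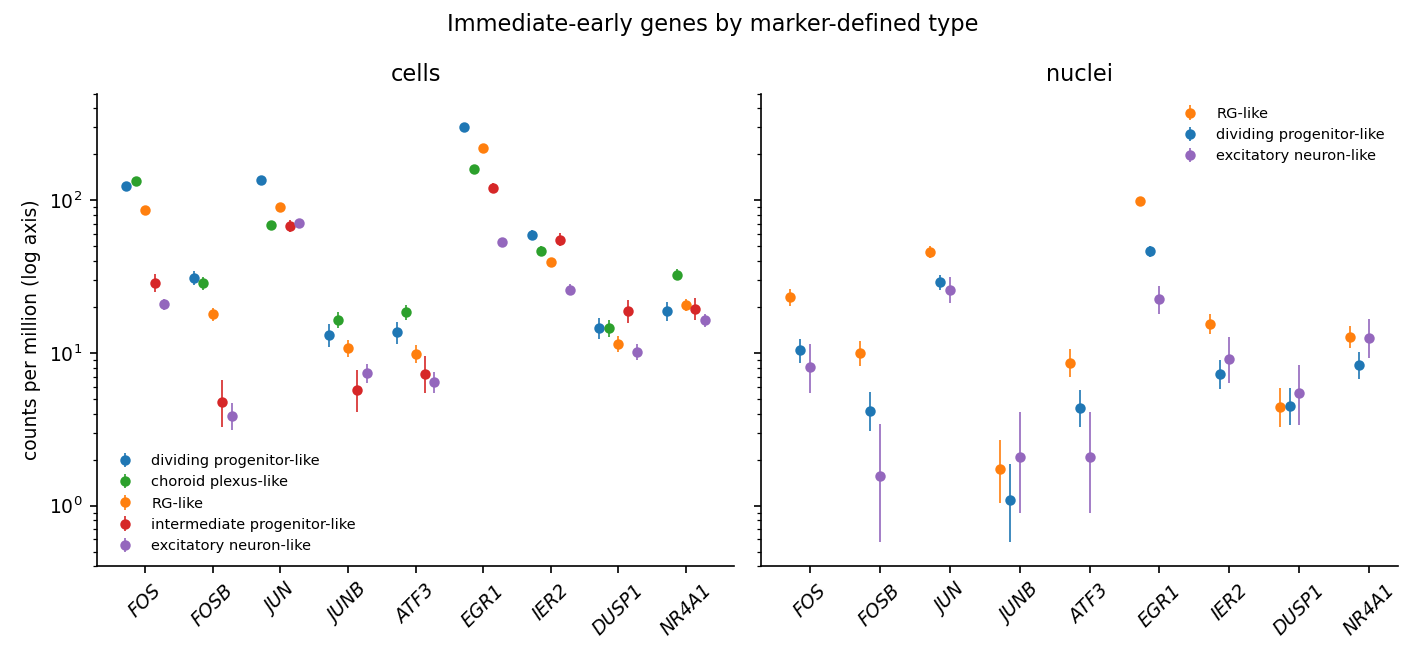
CPM (log axis) of each of the 9 genes in marker-defined types of cells (left) and nuclei (right), with exact 95% Poisson intervals. FOS, FOSB and EGR1 separate excitatory neuron-like cells from the dividing, RG-like and choroid plexus-like cells by the widest steps, and JUN, DUSP1 and NR4A1 lie closer together.

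Within the 2 named types compared, pooled over wells, the median excess of cells over nuclei was smaller than in the whole libraries. The median log2 ratios were 1.16 within RG-like and 1.36 within excitatory neuron-like barcodes, against 2.00. JUNB in RG-like and ATF3 in excitatory neuron-like barcodes had larger ratios than in the whole libraries, but from only 19 and 8 counts in nuclei. Among RG-like barcodes 5 of 9 genes were at least 2-fold higher in cells, against 24.7% of genes, with ratios of 6.17 for JUNB, 3.71 for FOS and 2.24 for EGR1, and FOSB, JUN, ATF3 and NR4A1 at 1.79, 1.97, 1.14 and 1.63. Among excitatory neuron-like barcodes 7 of 9 were, against 35.0% of genes, with ATF3 at 3.09 and DUSP1 and NR4A1 under the limit at 1.85 and 1.30. Wells 11 and 12 were included in these values. The RG-like class held unlike clusters in each library, so its ratios depend on their mixture and on the wells. EGR1 was at 223 and 219 CPM in the 2 clusters of cells and at 155 and 17.0 CPM in those of nuclei. Between the clusters with the higher levels it was under the 2-fold limit, but that nuclear level rested on wells 11 and 12. There EGR1 was at 274 and 251 CPM in this cluster, against at most 4.66 CPM in its nuclei of wells 3 to 7. The ratio for this cluster without wells 11 and 12 was not computed.

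A cluster of 751 nuclei without a type name, led by SLC2A3, POLR2A and FAM162A, held the highest sum of any nuclear cluster, 453 CPM [423 to 484], with JUN at 127, ATF3 at 57.6 and heat shock genes at 2910 CPM. This cluster also had the highest median mitochondrial share of the 18 nuclear clusters, 0.223% against 0.0863% over all nuclei, and a median of 2006 transcripts against 3890, and the part of RNA quality or depth in its level was not tested. Its level did not come from wells 11 and 12 alone: it was at 596 CPM [526 to 673] in well 11 and 534 CPM [463 to 612] in well 12, but also at 602 CPM [510 to 705] in well 7 and 665 CPM [421 to 997] in the 24 nuclei of well 2. It was lower in wells 5 and 6, at 367 and 372 CPM, and in wells 3, 4 and 10, at 198, 184 and 155 CPM, the rest of the wells with at least 20 of its nuclei. EGR1 still differed, at 216 and 194 CPM in wells 11 and 12 of this cluster and 51.2 CPM in well 7, while JUN was at 126, 147 and 216 CPM. The RG-like cluster of nuclei led by EGR1 itself was at 506 CPM [476 to 538] and 558 CPM [524 to 594] in wells 11 and 12 and at 40.1 to 96.3 CPM in the other 5 wells with at least 20 of its nuclei.

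In cells the highest cluster of more than 50 cells, 724 cells without a type name led by SV2C, KANK4 and GRIK1, was at 812 CPM [789 to 835], with EGR1 at 423 CPM and heat shock genes at 439 CPM, against 168 and 1140 CPM over all cells. It met 5 of 7 dividing progenitor markers but had none among its 50 leading genes, so it stayed unnamed. EGR1 was thus above the library level in this cluster and in the nuclear one, where it was at 103 CPM against 41.9 CPM, while heat shock genes were below it here and above it there, at 2910 against 692 CPM. The wells that gave at least 20 cells to this cluster, among them the 4 highest for EGR1, held 388 to 553 CPM of heat shock transcripts as whole wells, so that low level belonged to the wells and not to this cluster alone. An unnamed cluster led by PAX3, BMP3 and ATP6V1C2 held the highest FOS and ATF3 levels of clusters over 50 cells, 195 and 46.0 CPM, and 62.0% of it came from well 48. It met 5 of 7 cortical hem markers, also with none among its 50 leading genes.

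The other genes of the pathway were read from lists. Of 12 other immediate-early transcription factors tested 7 were at least 2-fold higher in cells than in nuclei, 58.3% against the 38.2% of all genes, with a median log2 ratio of 1.23, among them SRF at 1.22 and KLF6, a zinc-finger factor, at 1.49, while NR4A3 and NFIL3 were at 0.31 and 0.34. Of 19 other immediate-early non-factor genes 16 were, 84.2%, with a median of 1.37, CCN1 at 2.53 and ZFP36L1 under the limit at 0.79.

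Of 12 other AP-1 family genes 6 were, to set against the same 38.2% of all genes, with JUND at 1.88 and ATF2 at -0.06, and of 9 other dual-specificity phosphatases 6 were, 66.7%, with DUSP16 at -0.03. Of 13 upstream kinases and cofactors 1 was, 7.69%, with a median of 0.15 and MAPK8, the JNK kinase that activates JUN, at -0.29. Of 14 heat shock genes 5 were, 35.7%, between the 25.5% of protein-coding genes and the 38.2% of all genes, with HSP90AB1 at 1.45, HSP90AA1 at 0.57 and HSPH1 at -0.51. No gene of these lists was 2-fold higher in nuclei, as were 0.558% of all genes.

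Markers of immune, vessel and connective tissue cells that carry immediate-early transcripts in many tissues were low beside RG markers in both libraries taken whole. The 5 microglial markers summed to 9.12 CPM in cells and 5.50 CPM in nuclei, the 5 endothelial markers to 23.2 and 8 CPM and the 6 mesenchymal markers to 32.1 and 29.6 CPM, and none of them was without counts. RG markers summed to 2350 and 2330 CPM, and the 7 inhibitory lineage markers to 17.2 and 30.7 CPM. Single wells of cells reached 46.0 CPM of the microglial, 89.4 CPM of the endothelial and 150 CPM of the mesenchymal markers. The part of these other cells in the levels of the 9 genes was not tested.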

How the data were processed

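The deposited tables hold whole-number transcript counts per gene and barcode, unfiltered, which the authors made from Evercode v3 split-pool libraries (WT for cells and, by the study's methods, WT Mini for nuclei, although the labels give WT for both) with spipe on GRCh38. The counting of overlapping genes and of strand was not given in the sources used here. The 9 members and the other lists were chosen with earlier results of these data known.

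Counts were summed over kept barcodes and scaled to 1000000 transcripts (CPM). A 2-fold limit was set for genes with at least 20 counts over both libraries. Clustering used 2000 variable genes without the listed genes, 30 principal components, 15 neighbours and Leiden resolution 1 (scanpy 1.11.5). A cluster took the name of the list with the largest share of markers at 1.5-fold or more over other barcodes and in at least 25% of its own. It stayed unnamed with under 3 such markers, none among its 50 leading genes, another list holding more of its 10 leading genes, or, with no marker among those 10, a median depth below that of the library divided by 3. Scrublet called 0 doublets in either library and so had not worked; doublets were kept, and dropping the 1009 cells and 427 nuclei with the highest scores was an alternative. Thinning drew 1000 transcripts per barcode without replacement. Background barcodes held 10 to 100 transcripts. TMM factors came from edgeR 4.0.16. Genes likest over wells had at least 500 counts. Named genes were the members, up to 4 genes with most counts of each list, the 5 likest FOS and the 5 likest their sum, and 3 leading genes per cluster; HBEGF, HSPH1, MRTFB, MAFF, HSPA8, DUSP5 and single nuclear clusters were chosen after their values were seen. Overlaps and positions were read from a GRCh38 annotation, promoters from RefSeq. The scripts were tested on simulated data.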

Additional observations from a re-analysis of the deposited data

Results flagged for a closer look

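The levels in background barcodes lie outside the comparisons of kept barcodes. The 9 genes summed to 426 CPM in the background of the cell library and to 94.2 CPM in that of the nuclei library, from 14639 and 617 counts in 34343756 and 6547075 transcripts. They are given apart because these barcodes were left out of the comparisons between libraries, types and wells of kept barcodes. Above they were set against kept barcodes only, and there is no control library to set them against. Every one of the 9 genes was counted in both backgrounds, with JUNB in nuclei the lowest at 1.99 CPM. What part of the kept levels this is was not tested.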

How the results depend on the processing

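No paired analysis was possible because each group is 1 library and nothing pairs them. The count of members at least 2-fold higher in cells, 7, was 5 to 9 under all 13 alternatives. Their median log2 ratio of 2.00 was 1.5 with TMM factors, which shift every gene by 0.50, 1.82 over thinned barcodes, 1.16 within RG-like and 1.36 within excitatory neuron-like barcodes; with alternatives chosen after seeing the data it was 2.31 without well 11 of the nuclei, 2.70 without well 12 and 3.21 without both. The share of barcodes with a member, 31.1% of cells and 8.85% of nuclei, was 18.2% and 5.00% when thinned to 500 transcripts, 59.6% and 23.7% without thinning and 6.23% and 1.47% for at least 2 members; in nuclei it was 6.70% without well 11, 7.12% without well 12 and 4.57% without both. The 3.31-fold difference between types was 3.19 at Leiden resolution 0.5, 2.84 at resolution 2, 2.76 with listed genes kept, 2.85 over thinned barcodes and 3.43 without high Scrublet scores, always between the dividing progenitor-like and excitatory neuron-like cells. The fold over wells of cells, 5.88, was 4.21 within RG-like and 4.63 within excitatory neuron-like barcodes. In nuclei, 23.3 became 27.4 and 20.5 within these types, 18.9 over thinned barcodes and 7.15 without wells 11 and 12. FOS in choroid plexus-like over dividing progenitor-like cells, 1.08, turned to 0.767 without well 48 of the cells, also chosen after seeing the data. Of 66 alternative values, 38 stayed within 1.5 times the main count, 1 SD over sub-libraries of the median log2 ratio, or the 95% counting interval of the main share or fold. Some of these could not move. The low-count filter removed no member, and every well of nuclei held at least 567 kept barcodes, over the alternative limit of 100. Leaving out well 11 of the nuclei kept the highest and lowest wells, 12 and 10. Shares and folds of highest over lowest cannot change direction by construction. The cause of a move was not tested. Low counts, such as 146 of JUNB in nuclei, limit the order of levels between single wells.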
